A study of Homo sapiens with 12 samples.

Results

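Levels of 40 genes of the MYC network and of ribosome biogenesis were described in C4-2, an androgen-independent prostate cancer line derived from LNCaP. The genes were listed by name for their roles, with no threshold on a measured value, and all 40 were found among the 20308 genes of the expression table. The cells carried either an empty vector (NC, with no treatment) or a construct for overexpressing ALKBH5 (oeALKBH5), an enzyme that erases the RNA mark N6-methyladenosine (m6A). RNA was measured in 3 input libraries per group, that is, total RNA depleted of ribosomal RNA without m6A pull-down, out of 12 libraries in the series. The vector, its promoter, the time after its introduction, and whether the cells were a pool or a clone are not given in the sources used here. Nor do the labels say whether replicates were separate cultures, so a p-value here reflects the scatter of 3 libraries a group, perhaps no more than technical scatter.

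MYC is a transcription factor that, paired with MAX, binds E-box letters in DNA and raises genes for growth. MXD1, MXI1 and MNT compete with it for MAX and repress the same kind of gene. Making ribosomes is one of the main programmes MYC drives. RNA polymerase I copies the ribosomal DNA in the nucleolus, small nucleolar ribonucleoproteins (snoRNPs) modify the transcript, and assembly factors fold and cut it into the small and large subunits. MYC is often overexpressed in prostate cancer.

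Levels are FPKM, fragment counts scaled for transcript length and library size, so they can be compared between genes. Differences are oeALKBH5 minus NC on the log2(FPKM + 1) scale, and a gene was called when its adjusted p from limma, over the 12757 genes whose mean reached 0.5 FPKM, was under 0.05. The FPKM of a library summed to between 511333 and 524905, and its depth in reads is unknown. ALKBH5 stood at 64.9, 61.1 and 58.2 FPKM in NC and at 80.3, 74.3 and 72.5 FPKM in oeALKBH5 libraries, a difference of 0.30 (SE 0.10, limma adjusted p = 0.114), and the value may not hold all reads of the introduced sequence. All 9 luminal prostate markers examined, KLK3 and KRT8 among them, were present, the lowest with a mean of 55.6 FPKM, and KRT8 was the only one called. Their summed level was 2291 to 2322 FPKM in NC and 2294 to 2524 FPKM in oeALKBH5 libraries. Of 8 fibroblast markers, DCN and LUM were listed at 0 throughout, of 8 immune cell markers MS4A1 and NKG7, and of 3 endothelial markers KDR. The other markers of these lists were above 0 in at least 1 library. The highest value of a single fibroblast marker was 27.6 FPKM, in an oeALKBH5 library. For a single immune and a single endothelial marker the highest values were 3.999 and 1.123 FPKM. The summed levels were 4.05 to 13.1 FPKM in NC and 4.23 to 28.5 FPKM in oeALKBH5 libraries for fibroblast, 0.521 to 4.28 and 3.49 to 8.28 FPKM for immune, and 0.683 to 1.123 and 0.444 to 0.551 FPKM for endothelial markers. Of the fibroblast, immune and endothelial markers 2, 3 and 1 reached the level for testing and 0 were called, and their part in the results was not tested.

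In oeALKBH5 cells the MYC antagonists MXD1 and MXI1 rose, and the snoRNP protein NOP56, the pyrimidine enzyme CAD and the mitochondrial chaperonins HSPD1 and HSPE1 fell. Of the 39 members tested, 2 rose and 4 fell, and the other 33 missed the threshold. MYCN was the member left untested. The called share was 15.4% of members against 5.45% of all tested genes, 5.13% against 3.02% for higher and 10.3% against 2.43% for lower. These shares were not matched for level, and the members were listed with earlier results of these data known. The differences of 27 of the 39 members were negative, with a median of -0.16, while 47.7% of all tested genes had a negative difference and their median was 0.02. In total RNA of a culture, fewer cells of a kind and less RNA per cell cannot be told apart.

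The NC and oeALKBH5 libraries did not overlap in 15 members, where 28.1% of all tested genes had groups apart. In 11 of them oeALKBH5 was lower, 28.2% of the members tested against 13.0% of all tested genes, and in 4 it was higher, 10.3% against 15.1%. The 11 were the called NOP56, CAD, HSPD1 and HSPE1 together with GAR1, NHP2, NOLC1, NCL, NOP14, UTP20 and PAICS. The 4 were MXD1, MXI1, MYC and DKC1. The summed level of all 40 members took 0.909%, 0.95% and 0.929% of the FPKM total in NC and 0.858%, 0.81% and 0.836% in oeALKBH5 libraries, a sum in which NPM1, HSPD1 and NCL weigh most.

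Leaving out an NC library left 2 called members for replicate 1, 3 for replicate 2 and 1 for replicate 3. Leaving out an oeALKBH5 library gave 5 for replicate 1, 3 for replicate 2 and 4 for replicate 3. The 5 include GAR1, which was not called in the full fit. Without the intensity trend in the variance, limma called 0 members at an adjusted p under 0.05 and 9 at an unadjusted p under 0.05, against 13 with the trend, 4 higher and 9 lower (11.6% and 10.3% of all tested genes were higher and lower by that rule). The median of -0.16 was -0.09 both without NC replicate 3 and without oeALKBH5 replicate 2.

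**Figure D1:**
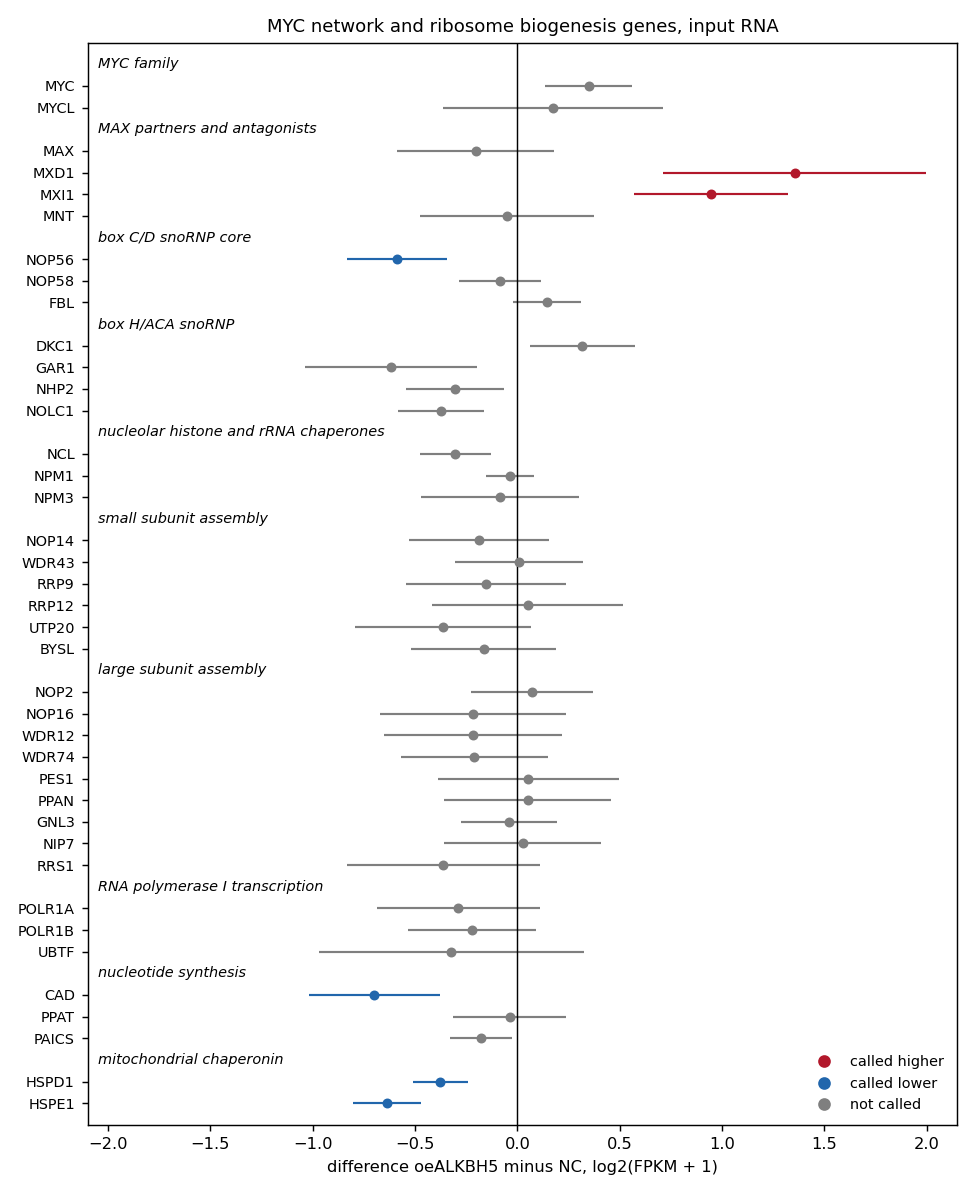
Difference oeALKBH5 minus NC on the log2(FPKM + 1) scale for the 39 tested members, by role, with points for the limma estimate and lines for its 95% interval. MXD1 (1.35) and MXI1 (0.95) are the only called members to the right of 0, and NOP56 (-0.59), CAD (-0.70), HSPD1 (-0.38) and HSPE1 (-0.64) are called to the left.

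Of the MYC family, MYC was the abundant member. MYC stood at 76.6, 82.0 and 77.8 FPKM in NC and at 101, 92.3 and 109 FPKM in oeALKBH5 libraries. Every oeALKBH5 library was above every NC library, yet the difference of 0.35 (SE 0.09, 95% interval 0.13 to 0.56) did not pass the test (limma adjusted p = 0.0707), and it did not pass in any of the 6 leave-one-out fits (adjusted p from 0.0705 to 0.193). MYCL, a relative named for its role in lung tumours, was at 3.77, 2.87 and 3.95 FPKM in NC and at 3.75, 3.996 and 4.51 FPKM in oeALKBH5 libraries, with overlapping groups (0.17, SE 0.24, limma adjusted p = 0.721). MYCN, the family member amplified in neuroblastoma, was listed at 0 in 5 libraries and at 0.179 FPKM in oeALKBH5 replicate 2.

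MAX, the obligate partner of MYC and of its antagonists, stood at 69.7, 57.6 and 54.0 FPKM in NC and at 46.8, 67.0 and 44.8 FPKM in oeALKBH5 libraries. The groups overlapped because oeALKBH5 replicate 2 was high, and the difference was -0.20 (95% interval -0.59 to 0.18, limma adjusted p = 0.52). FNTB, which overlaps the MAX locus, was lowest, at 2.49 FPKM, in oeALKBH5 replicate 1 and at 5.47 to 8.26 FPKM elsewhere. MXD1, an antagonist typical of cells that leave the cycle and differentiate, was at 2.05, 3.13 and 2.05 FPKM in NC and at 5.82, 10.8 and 6.996 FPKM in oeALKBH5 libraries. All oeALKBH5 libraries were above all NC libraries, with oeALKBH5 replicate 2 the highest, and MXD1 rose by 1.35 (SE 0.28, limma adjusted p = 0.0307), 3.26 times the NC mean. MXI1, the second such repressor, was at 16.5, 20.3 and 17.2 FPKM in NC and at 36.9, 41.5 and 29.1 FPKM in oeALKBH5 libraries. Here too no library of the groups overlapped, and MXI1 rose by 0.95 (SE 0.17, limma adjusted p = 0.0151), 1.99 times the NC mean. MNT, the antagonist found in most cell types, had overlapping groups, 10.2, 11.8 and 13.1 FPKM in NC and 9.49, 11.97 and 12.4 FPKM in oeALKBH5 libraries (-0.05, SE 0.19, limma adjusted p = 0.908), and its sign turned without NC replicate 3 (0.0261) and without oeALKBH5 replicate 1 (0.059).

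MXD1 was called in 1 and MXI1 in 2 of the 6 leave-one-out fits. The differences stayed between 1.13 and 1.52 for MXD1 and between 0.84 and 1.08 for MXI1. Fewer genes of the whole table were called in each of these fits as well. MXD1 was not called when any NC library was left out (limma adjusted p = 0.09, 0.0509 and 0.114 for replicates 1, 2 and 3), nor without oeALKBH5 replicate 2 (0.0838) or 3 (0.0787). MXI1 was not called without NC replicate 1 (limma adjusted p = 0.0539) or 3 (0.0692), nor without oeALKBH5 replicate 1 (0.0537) or 2 (0.0514). MXD1 was also not called with no filter on low genes (limma adjusted p = 0.076). MYC remained the more abundant RNA in every library. The ratio of MYC to MXI1 was 4.64, 4.04 and 4.52 in NC and 2.74, 2.22 and 3.73 in oeALKBH5 libraries, and that of MYC to MXD1 was 37.3, 26.2 and 37.9 in NC and 17.4, 8.55 and 15.5 in oeALKBH5 libraries. Both ratios were lower in every oeALKBH5 library than in any NC library. The ratio of MYC to MAX, at 1.099, 1.42 and 1.44 in NC and 2.16, 1.38 and 2.43 in oeALKBH5 libraries, was on average higher, with overlap. All 3 ratios were chosen after the values were seen and were not tested.

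**Figure D2:**
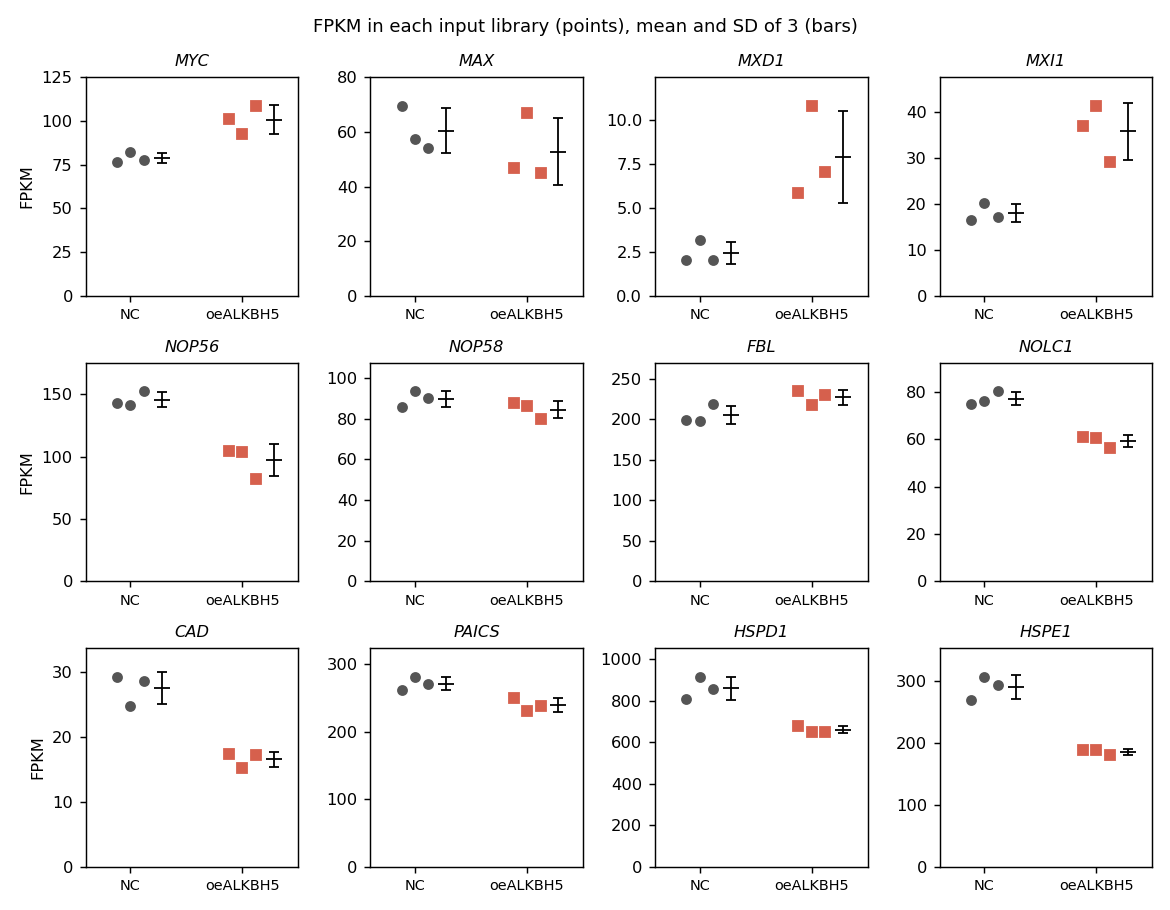
FPKM of 12 members in each input library, with NC as circles, oeALKBH5 as squares, and bars for the mean and SD of 3 libraries; each axis starts at 0. MYC, MXD1 and MXI1 are higher and NOP56, NOLC1, CAD, PAICS, HSPD1 and HSPE1 lower in all oeALKBH5 libraries than in any NC library, while MAX, NOP58 and FBL overlap. Of these, MYC, NOLC1 and PAICS were not called.

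Of the 3 members from the core of box C/D snoRNPs, which guide methylation of ribosomal RNA, NOP56 fell and the other 2 did not pass the test. SNU13, of the same core but not a member, had overlapping groups (0.02, SE 0.11, limma adjusted p = 0.947). NOP56, a scaffold of that core, was at 143, 142 and 153 FPKM in NC and at 105, 104 and 82.4 FPKM in oeALKBH5 libraries. NOP56 fell, with the 3 oeALKBH5 libraries below all NC libraries, by 0.59 (SE 0.11, limma adjusted p = 0.0188), or 33.3% of the NC mean. Its paralogue and partner in the particle, NOP58, was at 85.8, 93.5 and 90.1 FPKM in NC and at 87.6, 86.1 and 79.8 FPKM in oeALKBH5 libraries, with overlapping groups (-0.09, 95% interval -0.29 to 0.11, limma adjusted p = 0.609). FBL, the methyltransferase of the particle, was at 199, 198 and 218 FPKM in NC and at 234, 217 and 229 FPKM in oeALKBH5 libraries, again with overlap (0.15, 95% interval -0.02 to 0.31, limma adjusted p = 0.284). The ratio of NOP56 to NOP58 was 1.66, 1.52 and 1.69 in NC and 1.197, 1.21 and 1.03 in oeALKBH5 libraries, and that of NOP56 to FBL was 0.717, 0.717 and 0.699 in NC and 0.447, 0.48 and 0.359 in oeALKBH5 libraries. These ratios, chosen after the values were seen and not tested, were lower in every oeALKBH5 library. NOP56 was not called when any NC library was left out (limma adjusted p = 0.0535, 0.0549 and 0.0901 for replicates 1, 2 and 3), nor with no filter on low genes (0.0574).

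Box H/ACA snoRNPs convert uridine to pseudouridine, and none of the 4 members listed with them passed the test although the groups did not overlap in any of the 4. DKC1, the pseudouridine synthase, was the one with a positive difference, from 96.4, 80.7 and 97.3 FPKM in NC to 104, 128 and 111 FPKM in oeALKBH5 libraries (0.32, SE 0.11, limma adjusted p = 0.142). GAR1, a small subunit of the same particle, stood at 24.7, 26.9 and 28.2 FPKM in NC and at 22.4, 14.2 and 15.3 FPKM in oeALKBH5 libraries (-0.62, SE 0.19, limma adjusted p = 0.0956). It passed in 1 of the 6 leave-one-out fits, without oeALKBH5 replicate 1, the nearest to NC (adjusted p = 0.0385). The highest adjusted p of GAR1 in those limma fits was 0.24. NHP2, which binds the guide RNA, was at 115, 105 and 112 FPKM in NC and at 102, 82.1 and 84.2 FPKM in oeALKBH5 libraries (-0.30, SE 0.11, limma adjusted p = 0.134). NOLC1, a chaperone of snoRNPs between Cajal body and nucleolus, was at 75.2, 76.2 and 80.4 FPKM in NC and at 61.1, 60.8 and 56.5 FPKM in oeALKBH5 libraries (-0.37, SE 0.09, limma adjusted p = 0.0526). Its spread within groups was small against the gap between them, and it passed with no filter on low genes (adjusted p = 0.0417) and with median ratio scaling (0.0456). However, NOLC1 passed in 0 of the 6 leave-one-out fits (limma adjusted p from 0.0891 to 0.172). Between DKC1 and GAR1 the ratio was 3.91, 2.999 and 3.46 in NC and 4.67, 9.02 and 7.22 in oeALKBH5 libraries, higher in each of the latter, a ratio chosen after the values were seen and not tested.

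Among the nucleolar chaperones, NCL, the abundant RNA-binding nucleolin, was at 578, 641 and 613 FPKM in NC and at 531, 447 and 509 FPKM in oeALKBH5 libraries. These groups did not overlap, and the difference of -0.30 (SE 0.08) missed the threshold (limma adjusted p = 0.0555) but passed with median ratio scaling (0.045). NCL passed in 0 of the 6 leave-one-out fits (limma adjusted p from 0.0588 to 0.166). NPM1, or nucleophosmin, was the most abundant member, at 1091, 1158 and 1077 FPKM in NC and at 1085, 1041 and 1118 FPKM in oeALKBH5 libraries. Its groups overlapped and its interval was narrow, -0.15 to 0.08 around -0.04 (limma adjusted p = 0.735). NPM3, a smaller relative, overlapped as well (-0.09, SE 0.17), and its sign turned without NC replicate 2 (0.0204).

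None of the 6 members of small subunit assembly passed the test, and their differences ran from -0.36 to 0.05. The lowest was UTP20, a large scaffold of the early particle, at 11.3, 14.2 and 14.7 FPKM in NC and at 11.2, 8.58 and 10.9 FPKM in oeALKBH5 libraries (95% interval -0.79 to 0.07, limma adjusted p = 0.305). NC replicate 1 and oeALKBH5 replicate 1 nearly met. NOP14 was steady in NC, at 23.8, 24.0 and 23.8 FPKM, and stood at 23.1, 17.4 and 22.5 FPKM in oeALKBH5 libraries, where replicate 2 made most of the difference of -0.19 (-0.062 without it). WDR43 sat nearest to 0, at 50.1, 49.3 and 54.4 FPKM in NC and at 45.9, 47.3 and 62.8 FPKM in oeALKBH5 libraries. RRP9, a protein of the U3 particle, RRP12, an export factor, and BYSL, or bystin, had overlapping groups.

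Large subunit assembly had 9 members. None passed the test, none had groups apart, and the differences ran from -0.36 to 0.07 with a median of -0.04. RRS1, a factor that brings the 5S particle to the precursor, was lowest, at 22.1, 26.1 and 18.5 FPKM in NC and at 20.0, 12.7 and 19.0 FPKM in oeALKBH5 libraries (95% interval -0.83 to 0.11, limma adjusted p = 0.348). NIP7 was nearest to 0, at 22.5, 25.8 and 23.6 FPKM in NC and at 29.0, 25.8 and 19.4 FPKM in oeALKBH5 libraries (95% interval -0.36 to 0.41). GNL3, or nucleostemin, had the narrowest interval of the group, -0.28 to 0.19. The others were the methyltransferase NOP2 and the factors NOP16, WDR12, WDR74, PES1 and PPAN. For PES1, a subunit of the PeBoW complex with WDR12, oeALKBH5 libraries spread from 38.3 to 66.6 FPKM around the 41.0 to 53.3 FPKM of NC.

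All 3 members of RNA polymerase I transcription had negative differences that did not pass the test, -0.29 for POLR1A, the largest subunit, -0.22 for POLR1B, the next, and -0.32 for UBTF, the factor that keeps ribosomal DNA active. UBTF was at 37.2, 49.5 and 35.5 FPKM in NC and at 48.2, 19.6 and 34.4 FPKM in oeALKBH5 libraries. One library, oeALKBH5 replicate 2, set its value, which was 0.0155 without it (limma adjusted p = 0.974). POLR1B was at 34.0, 38.2 and 35.1 FPKM in NC and at 28.5, 27.7 and 35.8 FPKM in oeALKBH5 libraries (95% interval -0.53 to 0.09).

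CAD, the enzyme of the first steps of pyrimidine synthesis and a textbook MYC target, was at 29.3, 24.8 and 28.6 FPKM in NC and at 17.3, 15.3 and 17.2 FPKM in oeALKBH5 libraries. The groups lay far apart, and CAD fell by 0.70 (SE 0.14, limma adjusted p = 0.0273), or 39.8% of the NC mean, the largest fall among the members. CAD was not called in any of the 6 leave-one-out fits, with a limma adjusted p of 0.0942, 0.0509 and 0.113 when NC replicates 1, 2 and 3 were left out and of 0.057, 0.0718 and 0.0703 for oeALKBH5 replicates 1, 2 and 3, while its difference stayed between -0.77 and -0.64. The purine enzymes PPAT and PAICS did not pass the test. PPAT, which commits to purine synthesis, was at 38.3, 42.5 and 46.4 FPKM in NC and at 43.2, 37.6 and 43.0 FPKM in oeALKBH5 libraries (95% interval -0.31 to 0.24, limma adjusted p = 0.897). PAICS, which acts later in that pathway, was at 262, 282 and 271 FPKM in NC and at 251, 231 and 238 FPKM in oeALKBH5 libraries, lower without overlap (-0.18, 95% interval -0.33 to -0.03, limma adjusted p = 0.157).

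The chaperonins HSPD1 and HSPE1, whose proteins form the barrel and the lid of the mitochondrial folding chamber, fell together. HSPD1 was at 807, 914 and 853 FPKM in NC and at 679, 651 and 649 FPKM in oeALKBH5 libraries. HSPD1 fell by 0.38 (SE 0.06, limma adjusted p = 0.00999), or 23.1% of the NC mean, and missed the threshold without NC replicate 3 (adjusted p = 0.0518). HSPE1 was at 269, 307 and 293 FPKM in NC and at 188, 188 and 180 FPKM in oeALKBH5 libraries, with the groups well apart. HSPE1 fell by 0.64 (SE 0.07, limma adjusted p = 0.0024), or 36% of the NC mean, and was the only called member that passed in all 6 leave-one-out fits (highest adjusted p 0.0207). Without the trend, HSPE1 and HSPD1 had an adjusted p of 0.0543 and 0.15. The readthrough gene HSPE1-MOB4, which shares exons with HSPE1, was at 16.7, 23.2 and 30.1 FPKM in NC and at 23.4, 5.75 and 11.2 FPKM in oeALKBH5 libraries, so part of the reads of HSPE1 may be split between them. HSPD1, HSPE1 and NPM1 also have processed pseudogenes, and how the authors assigned reads shared with these is not given in the sources used here.

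HSPE1 with HSPD1, and PAICS with PPAT, are neighbours read in opposite directions from nearby starts, and in each pair the RefSeq promoter windows share 1 E-box. The windows run from 250 bases before to 50 after the start, in build GRCh38.p14, and are shown because both genes of a pair use the region. The window of HSPE1 is chr2:197500129-197500428 on the plus strand, with the E-box in capitals. It lies 22 bases before the start of HSPE1 and 88 before that of HSPD1, which is 105 bases away on the other strand.
HSPE1: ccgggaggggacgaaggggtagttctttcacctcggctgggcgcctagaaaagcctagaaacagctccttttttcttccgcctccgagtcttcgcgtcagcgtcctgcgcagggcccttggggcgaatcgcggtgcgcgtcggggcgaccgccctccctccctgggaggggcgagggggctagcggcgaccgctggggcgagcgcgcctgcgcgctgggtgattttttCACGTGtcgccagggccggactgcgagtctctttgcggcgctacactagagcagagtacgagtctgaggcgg

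The window of PAICS is chr4:56435502-56435801 on the plus strand. Its E-box, in capitals, lies 40 bases after the start of PAICS and 182 before that of PPAT, 137 bases away on the other strand.
PAICS: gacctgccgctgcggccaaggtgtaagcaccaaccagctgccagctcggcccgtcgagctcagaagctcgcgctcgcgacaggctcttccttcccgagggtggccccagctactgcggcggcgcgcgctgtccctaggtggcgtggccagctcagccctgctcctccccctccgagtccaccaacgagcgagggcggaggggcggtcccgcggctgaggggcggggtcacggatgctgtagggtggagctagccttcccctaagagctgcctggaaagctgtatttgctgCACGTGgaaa

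Within a library, the ratio of HSPE1 to HSPD1 was 0.333, 0.335 and 0.344 in NC and 0.277, 0.289 and 0.278 in oeALKBH5 libraries. The level of HSPE1 relative to its neighbour was lower in all oeALKBH5 libraries, by 0.26 on the log2 scale (exact permutation test, two-sided p = 0.1, which is the lowest value possible with 3 libraries a group). For PAICS to PPAT the ratio was 6.85, 6.63 and 5.84 in NC and 5.80, 6.16 and 5.53 in oeALKBH5 libraries. These overlapped, with a log2 difference of -0.14 (exact permutation test, two-sided p = 0.2).

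**Figure D3:**
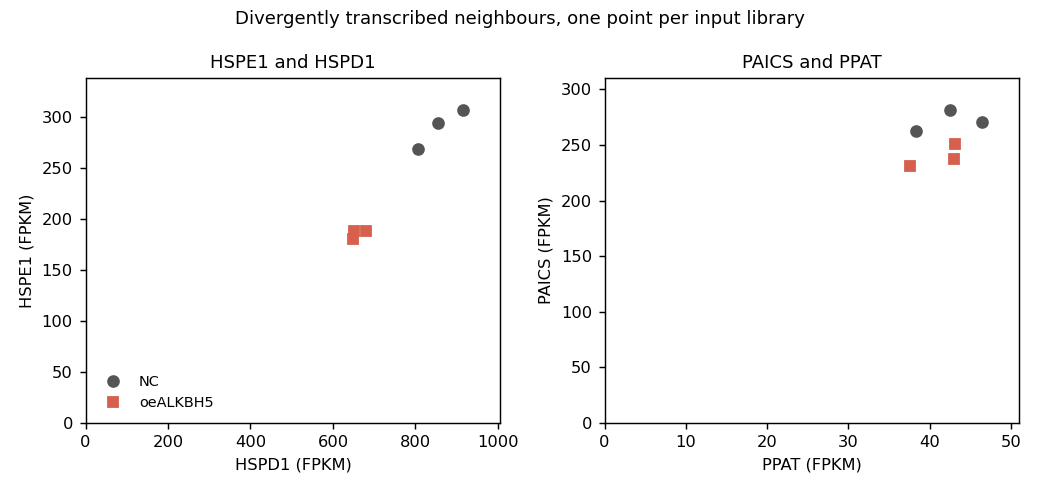
FPKM of each pair of neighbouring genes in the 6 input libraries, with NC as circles and oeALKBH5 as squares; both axes start at 0. For HSPE1 and HSPD1 the oeALKBH5 libraries lie apart from NC on both axes, and for PAICS and PPAT the groups are apart on the PAICS axis only.

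The E-box letters searched were CACGTG, which reads the same on both strands. Of the 40 members, 35 matched the promoter table, and 15 of them, 42.9%, held the letters in at least 1 window, against 8.77% of all 27305 genes in that table and 12.8% of the 10153 tested genes matched to it. Counted by window, the share was 31.3% of 48 windows of members against 7.26% of all 35116 windows of this length. Many members are known MYC targets, so the share describes the list and was not tested. The letters began after the start in 9 members and before it in 6. A site shared by HSPE1 and HSPD1, or by PAICS and PPAT, was counted for each gene of the pair. In the following sites the E-box is in capitals with its flanks, and they are shown to compare its setting across antagonist, snoRNP and assembly genes.
MNT, chr17:2401238-2401263, minus strand: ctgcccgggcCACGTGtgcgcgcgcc
FBL, chr19:39846358-39846383, minus strand: cgctcttttcCACGTGcgaaagcccc
GAR1, chr4:109815783-109815808, plus strand: gccagaggggCACGTGgcgccggtga
UTP20, chr12:101280085-101280110, plus strand: tttttccgtcCACGTGacccactcag
RRP9, chr3:51941894-51941919, minus strand: gttcagctgcCACGTGagttctgcgg
PES1, chr22:30591882-30591907, minus strand: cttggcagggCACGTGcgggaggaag
NOP2, chr12:6568242-6568266, minus strand: gtccggattgCACGTGgagggccgc
GNL3, chr3:52686028-52686053, plus strand: cttcagttcaCACGTGgcgccagcgg

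Among the sites shown, the letters were within 10 bases of the start in RRP9, UTP20, GNL3 and FBL, and 193 bases before it in MNT. Members with the letters had a median difference of -0.15 (15 tested, from -0.64 to 0.15) and matched members without them -0.21 (19 tested). Of the 6 called members, HSPD1 and HSPE1 held them, in the 1 site that they share. NOP56, CAD, MXD1 and MXI1 did not within this window, which says nothing of E-boxes elsewhere in these genes. A variant, CACGCG on either strand, where a match can overlap one on the other strand, stood in 22.9% of the matched members and 22.5% of the tested genes.

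In RefSeq, 9 members hold snoRNA genes inside their bounds. NOP56 and GNL3 hold 5 each, NOP58 holds 4, and NCL and WDR43 hold 3 each. DKC1 and PPAN hold 2 each, and HSPD1 and UTP20 hold 1 each. Of these hosts NOP56 and HSPD1 fell and 7 did not pass the test, with differences from -0.36 for UTP20 to 0.32 for DKC1.

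By mean level over the 6 libraries, NPM1 led the members, followed by HSPD1, NCL, PAICS, HSPE1, FBL and NOP56, and MNT, MXD1, MYCL and MYCN closed the order. PAICS (272 ± 9.65 FPKM) and HSPE1 (290 ± 19.4 FPKM, mean ± SD, n = 3) were close in NC, with HSPE1 the higher in all 3 libraries. In oeALKBH5 libraries PAICS (240 ± 9.75 FPKM) was above HSPE1 (185 ± 4.44 FPKM) in all 3. The change of order was not tested. MYC (78.8 ± 2.83 FPKM) and NOLC1 (77.3 ± 2.76 FPKM) did not differ beyond their spread in NC, whereas MYC (101 ± 8.23 FPKM) was above NOLC1 (59.4 ± 2.56 FPKM) in oeALKBH5 libraries.

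Other genes of the same pathways were read from lists made by function. Of 164 genes, 161 were in the table and 159 were tested. There 4 rose and 7 fell, and 148 missed the threshold, a called share of 6.92% against 5.45% of all tested genes. The median difference was -0.11, and 69.2% of the differences were negative, as were 69.2% of those of the members. Leaving out NC replicates 1, 2 and 3 in turn gave 9, 3 and 2 calls, and leaving out oeALKBH5 replicates 1, 2 and 3 gave 4, 3 and 5. Without NC replicate 1 and without oeALKBH5 replicate 3, not all of these calls were among those of the full fit.

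Of 4 further genes listed with box H/ACA particles, 2 fell, 50% against 2.43% of all tested genes, and 2 did not pass the test. Of the 2 that fell, only NOP10 is a protein of the particle. NOP10, the smallest core protein, went from 130, 132 and 123 FPKM in NC to 88.8, 90.6 and 93.6 FPKM in oeALKBH5 libraries, groups that did not overlap, and fell by 0.49 (SE 0.08, limma adjusted p = 0.0106). TCOF1, or treacle, a partner of NOLC1 and of RNA polymerase I, fell from 31.5 ± 1.41 to 18.8 ± 4.5 FPKM (n = 3 per group, limma adjusted p = 0.0491). NOP10 passed in all 6 leave-one-out fits, and TCOF1 in 1 of them, without oeALKBH5 replicate 1 (its highest adjusted p, 0.149, was without NC replicate 3). Together with GAR1, NHP2 and DKC1, this makes 4 core proteins of the particle, of which NOP10 fell, GAR1 and NHP2 were lower without passing the test, and DKC1 was higher without passing it.

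Of 46 further large subunit factors, 2 fell, 4.35% against 2.43% of all tested genes, and 44 did not pass the test (median -0.09). EIF6, which keeps the new subunit from joining too early, fell from 63.1 ± 5.08 to 44.7 ± 3.72 FPKM (limma adjusted p = 0.0429, n = 3 per group), and BRIX1 fell from 74.9 ± 11.7 to 49.4 ± 6.19 FPKM (adjusted p = 0.0489), but neither was called in any of the 6 leave-one-out fits, where the highest adjusted p was 0.134 for EIF6, without NC replicate 1, and 0.161 for BRIX1, without NC replicate 3. Of 46 further small subunit factors, limma called 0, with 8 lower and 0 higher at an unadjusted p under 0.05 and a median of -0.09. By that unadjusted rule 10.3% of all tested genes were lower and 11.6% higher. Among the 46, the methyltransferase BUD23 had the smallest p (-0.41, SE 0.11, adjusted p = 0.0723). Likewise 0 of 6 further box C/D genes were called (1 at an unadjusted p under 0.05, the ATPase RUVBL1, -0.23, SE 0.10), and 0 of 12 genes of RNA polymerase I transcription (1 at an unadjusted p under 0.05, TAF1A, -0.71, SE 0.23).

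Purine and pyrimidine genes beyond the members gave 0 calls of 10 and 0 of 4. For the counts that follow, 10.3% of all tested genes were lower and 11.6% higher at an unadjusted p under 0.05. At an unadjusted p under 0.05 there was 1 purine gene, IMPDH1 (-0.36, SE 0.15), and 0 pyrimidine genes, where CTPS2 had the smallest p (-0.37, SE 0.24) and the median was -0.32. Among 7 other mitochondrial chaperones and proteases limma also called 0, with 1, DNAJA3, at an unadjusted p under 0.05 (-0.43, SE 0.13, adjusted p = 0.0967) and a median of -0.17. In the extended MYC network 0 of 6 were called. MLXIPL, a glucose-responsive relative of MYC, was at 1.68, 2.04 and 2.54 FPKM in NC and at 4.95, 3.61 and 4.79 FPKM in oeALKBH5 libraries, higher without overlap (0.82, SE 0.26, limma adjusted p = 0.105), and was the 1 gene of this list at an unadjusted p under 0.05. Of this list, 4 genes had a negative difference, among them MXD3 (-0.62, SE 0.28, limma adjusted p = 0.235) and MXD4 (-0.34, SE 0.24, adjusted p = 0.441), antagonists of the same family as MXD1 and MXI1. Both had overlapping groups, and they are named after their values were seen.

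Of 12 tested genes of other MYC targets, 1 rose and 3 fell, 8 missed the threshold, and 11 had a negative difference (median -0.37). The called shares were 8.33% higher and 25% lower, against 3.02% and 2.43% of all tested genes. NME1, a nucleoside diphosphate kinase, was at 182, 190 and 198 FPKM in NC and at 124, 82.7 and 109 FPKM in oeALKBH5 libraries, far apart, and fell by 0.87 (SE 0.14, limma adjusted p = 0.00999). It missed the threshold without NC replicate 3 (adjusted p = 0.0539) and with no filter on low genes (0.0515). NME2 is its close copy beside it in the genome, and how reads that match both were assigned is not given in the sources used here. The ratio of NME1 to NME2 was 0.25 to 0.289 in NC and 0.134 to 0.202 in oeALKBH5 libraries, and the size of the fall is uncertain. SRM, spermidine synthase, fell from 77.4 ± 11.4 to 49.96 ± 6.08 FPKM (limma adjusted p = 0.0392, n = 3 per group), and C1QBP, a mitochondrial matrix protein, from 389 ± 26.3 to 308 ± 19.3 FPKM (adjusted p = 0.0407). Among the 6 leave-one-out fits, SRM and C1QBP passed in the one without NC replicate 1, and both had their highest p without NC replicate 3 (0.142 and 0.148). The gene that rose, LDHA, is lactate dehydrogenase, which also belongs to glycolysis and the hypoxia response. It went from 754 ± 57.4 to 970 ± 59.9 FPKM (limma adjusted p = 0.0245, n = 3 per group). LDHA passed in 2 of the 6 leave-one-out fits, without NC replicate 1 or oeALKBH5 replicate 3, and its adjusted p was highest without oeALKBH5 replicate 2 (0.0741).

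Of 6 tested genes described as repressed by MYC, 3 rose, 50% against 3.02% of all tested genes, and 3 did not pass the test. The difference was positive in 5 and negative in 1 (-0.74, not called), with a median of 0.57. NDRG1, which is also a hypoxia and stress gene, was at 57.0, 59.1 and 71.8 FPKM in NC and at 248, 305 and 277 FPKM in oeALKBH5 libraries, and rose by 2.13 (SE 0.11, limma adjusted p = 3.46e-05). The inhibitors of cyclin-dependent kinases CDKN1A, also a p53 target, and CDKN1C were higher in every oeALKBH5 library. CDKN1A rose from 40.1 ± 4.73 to 59.4 ± 2.85 FPKM (limma adjusted p = 0.0323, n = 3 per group) and CDKN1C from 3.58 ± 1.29 to 9.77 ± 1.56 FPKM (adjusted p = 0.0297). Each of these 2 passed in 1 of the 6 leave-one-out fits, the one without NC replicate 1, and had its highest adjusted p without NC replicate 3, 0.118 for CDKN1A and 0.112 for CDKN1C.

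**Figure D4:**
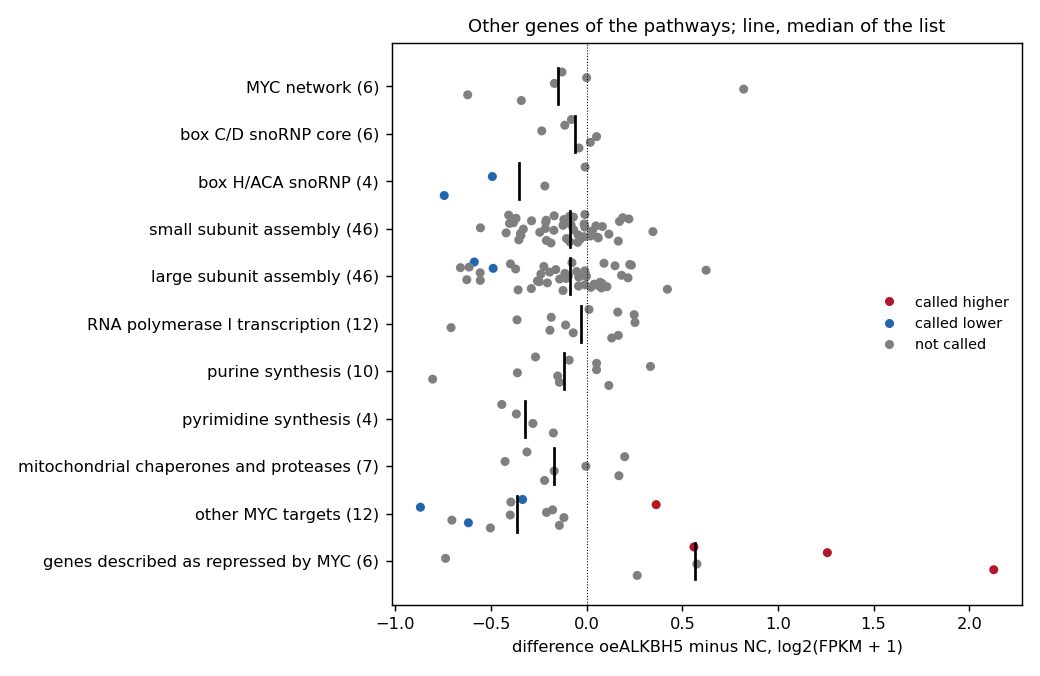
Difference oeALKBH5 minus NC on the log2(FPKM + 1) scale for the 159 tested genes of the other lists, 1 point per gene, with the number of genes in brackets and a line at the median of each list. The medians lie between -0.37 and -0.03 in the first 10 lists and at 0.57 in the genes described as repressed by MYC, and 7 points called lower and 4 called higher stand out in color.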

How the data were processed

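Gene values are FPKM as deposited by the authors, 1 column per library. The column names fit the input and the IP library of a sample alike. They were read as input because the input descriptions name this table, except that of oeALKBH5 replicate 3, which was read as the others. No unit stands in the table, and FPKM was inferred from the values and from the tools listed in the submitters' processing notes: cutadapt 1.9.3, HISAT2 2.0.4, Cuffdiff and Cufflinks with build hg19, whose roles and order are not given in the sources used here. Directional libraries were sequenced as paired reads of 150 bases, per the labels' protocols. The m6A peak lists of the 6 IP libraries were not analysed here, because no hg19 annotation was used that would place peaks in genes.

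Samples were grouped by title. Of 20308 genes, 19434 had a symbol. The 12757 genes whose mean reached 0.5 FPKM were tested on log2(FPKM + 1) with limma 3.58.1 (R 4.3.3, intensity trend, Benjamini-Hochberg over all of them, threshold 0.05). The fit was tested on simulated data in which 200 genes were changed by 1 on the log2 scale. It called 55% of these, with 4 false calls among 12557 unchanged genes. The changed genes were drawn only from those of higher mean level, so the share called does not cover low genes such as MXD1 and MYCL. A gene that was not called may therefore still differ, and smaller changes were not simulated. Alternatives were other pseudocounts, filters and scalings, no trend, a replicate block and leaving out each library. Ratios of pairs had an exact permutation test. Promoter windows come from RefSeq, GRCh38.p14. Python 3.11.15 with pandas 2.3.3, scipy 1.17.1 and matplotlib 3.10.9 was used.

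The members and lists were chosen with earlier results of these data known. Values are given for each called member, the whole MYC network, and in each other role the uncalled members with the largest and smallest difference. In each further list the called genes, at most 4, are named, or the gene with the smallest p where none was called. SNU13, MXD3, MXD4 and NME2 are named besides. Ratios described without a test were chosen after the values were seen. DDX52, AATF and BOP1 of the further lists and PECAM1 of the endothelial markers were not matched and are not analysed here. A few of the cell type markers listed are not reported here.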

Additional observations from a re-analysis of the deposited data

How the results depend on the processing

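Of 507 values of the 39 tested members under 13 alternatives, 450 kept their direction and side of the threshold, 29 lost a call, 4 gained one and 24 changed sign. The sign changes were in 11 members, none of them called. Calls among all tested genes, 695 in the fit reported, were 344 with the replicate block, 421 with no filter and 270 without the trend, and 232 to 436 when 1 library was left out. Members called, 6 in the fit reported, were 0 without the trend and 1 to 5 when 1 library was left out. With median ratio scaling 8 were called, NOLC1 and NCL being added. Other pathway genes called, 11 in the fit reported, were 3 with the replicate block, 2 with no filter, 7 with quantile normalization, 1 without the trend, and 2 to 9 when 1 library was left out. Libraries of the same replicate number shared no clear pattern, with correlations of their deviations of -0.02, -0.02 and 0.03 for numbers 1, 2 and 3. These values cannot show whether such libraries were made or processed together. With the block 4 members were called (2 higher, 2 lower). Leaving out 1 library moved the log2 difference from -0.14 to 0.059 for MNT, -0.24 to 0.0204 for NPM3, -0.13 to 0.0888 for WDR43 (-0.0074 with median ratio scaling), -0.0591 to 0.22 for RRP12, -0.0529 to 0.16 for NOP2, -0.16 to 0.23 for PES1, -0.0765 to 0.20 for PPAN, -0.0949 to 0.0332 for GNL3, -0.0928 to 0.19 for NIP7, -0.61 to 0.0155 for UBTF and -0.11 to 0.029 for PPAT. With the window from 150 bases before the start, 13 members in place of 15 held the E-box letters. The cause of these changes was not tested. Depth in reads is unknown, so no counting error could be given for low genes such as MXD1 and MYCL.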
